A study of Mus musculus with 54 samples.

Results

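The genes described here are the interferon-related genes on the array: every gene whose symbol in the platform annotation begins with Ifnar, Ifngr, Stat, Irf, Ifit, Isg, Oas or Gbp, or with Ifi and a digit, with a digit also required after Stat, Irf and Gbp. The rule uses symbols only, not measured values. It found 64 of 18193 genes, and each was represented by its brightest probe set, that is, the probe set with the highest mean over all 54 arrays. All 64 were matched to RefSeq by gene identifier. The match is to a name, so the list also takes in the Irf2bp genes, which encode partners of IRF2 and not interferon regulatory factors, Isg20l2, a nuclease named for its likeness to Isg20, and Irf and Stat genes with roles outside interferon signalling.

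The study measured RNA on expression arrays in hippocampus, striatum and brainstem of male mice of 6 inbred strains, named C57BL6/J, C57L/J, BalbC/J, C57BL10/J, C3H HeJ and C57BLKS/J in the labels. In every tissue each strain had 3 arrays, 1 from mice tested for prepulse inhibition of the acoustic startle reflex, a measure of sensorimotor gating, and 2 from untested mice, so that no strain had more than 1 tested array in a tissue. Each array held tissue pooled from 3 mice, taken from alternating hemispheres, and mice were killed on postnatal day 60, with testing begun on postnatal day 50 in 6 of the 12 mice of a strain. No genotype was altered, and no drug or immune stimulus is named in the labels, so no group is labelled as stimulated. The tissues of a strain come from overlapping sets of mice and are not independent of each other. Because tissue was pooled before hybridisation, the spread between arrays is that between pools, and in tissue of mixed cell types fewer cells of a type and less RNA per cell cannot be told apart.

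Interferons are secreted signalling proteins, and cells release those of type I on sensing viral or bacterial nucleic acid. Type I interferons bind the receptor formed by IFNAR1 and IFNAR2, and interferon gamma binds that formed by IFNGR1 and IFNGR2. Receptor-bound JAK kinases phosphorylate STAT proteins, and a complex that holds STAT2 and IRF9 binds the interferon-stimulated response element, whose core is a pair of GAAA repeats. The genes switched on include the IFIT, IFITM, OAS and GBP families, which bind foreign RNA, block virus entry, start RNA decay and attack vacuoles that hold pathogens. In the resting brain, low tonic signalling keeps some of these genes on, and microglia, endothelium and astrocytes respond strongly.

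Promoter windows in RefSeq on build GRCm38.p6, from 250 bases before to 50 after an annotated start, were at hand for 55 of the 64 genes, in 70 windows. The response element core, written here as GAAA, then any 2 bases, then GAAA again, was searched on both strands and was found in 20 of the 70 windows (28.6%), against 1131 of 32851 windows of the same length over all genes (3.44%). By gene this was 19 of 55, with 4 of 4 Gbp, 4 of 5 Ifit, 3 of 5 Ifi200 cluster and 3 of 7 Oas genes. It was also in 2 of 7 Ifitm, 2 of 6 Stat and 1 of 8 Irf genes. None of 4 receptor, 3 Irf2bp, 2 Isg or 4 other Ifi genes held it, the last including Ifi30 and Ifi35. The STAT dimer core TTCNNNGAA was in 14 of the 70 windows (20%), against 8.3% of all windows. Of the genes that hold the response element core, 4 are shown, chosen after their values were seen and not by a rule. Each has 170 bases up to the base before a RefSeq start, with the matches in capitals. All matches read TTTC first because they lie on the reverse strand. The stretches are chr19:34583359-34583528 for Ifit3, chr3:142620493-142620662 for Gbp2, chr3:142559874-142560043 for Gbp3 and chr3:142530166-142530335 for Gbp7, all on the plus strand.
Ifit3: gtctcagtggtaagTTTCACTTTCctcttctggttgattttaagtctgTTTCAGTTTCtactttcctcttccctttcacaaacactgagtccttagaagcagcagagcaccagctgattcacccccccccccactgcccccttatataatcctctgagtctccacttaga
Gbp2: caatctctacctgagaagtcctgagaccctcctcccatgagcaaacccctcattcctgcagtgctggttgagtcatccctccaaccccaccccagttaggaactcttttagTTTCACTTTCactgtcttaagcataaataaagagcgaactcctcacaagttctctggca
Gbp3: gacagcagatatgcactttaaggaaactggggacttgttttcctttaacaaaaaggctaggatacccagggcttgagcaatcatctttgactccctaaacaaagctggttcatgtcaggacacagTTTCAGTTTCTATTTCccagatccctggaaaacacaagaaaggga
Gbp7: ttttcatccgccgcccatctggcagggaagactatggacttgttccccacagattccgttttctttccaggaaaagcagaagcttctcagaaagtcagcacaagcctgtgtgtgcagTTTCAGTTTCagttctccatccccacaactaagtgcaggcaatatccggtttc
Ifit3 holds 2 separate matches, starting 156 and 122 bases before the start, and Gbp3 holds 2 that overlap, at 45 and 39 bases. Gbp2 and Gbp7 hold 1 match each, at 59 and 53 bases. Neither of the windows of Ifit2, the neighbour of Ifit3 on chromosome 19, holds the core, which says only that these letters are absent from those windows. A match is a description of the sequence and not a measured binding site.

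Many of the genes lie side by side. On GRCm38.p6, Ifit2 (chr19:34550550-34576534) and Ifit3 (chr19:34583119-34588982) are followed by Ifit1bl1, Ifit1bl2 and Ifit1. Gbp7 (chr3:142530336-142550151), Gbp3 (chr3:142560016-142573213), Gbp2b and Gbp2 (chr3:142620663-142638008) form a block on chromosome 3, while Gbp8 and Gbp6 lie on chromosome 5. Ifitm5, Ifitm2, Ifitm1, Ifitm3 and Ifitm6 lie together on chromosome 7, the 8 Oas1, Oas2 and Oas3 genes on chromosome 5, and the 6 Ifi200 genes on chromosome 1. Ifnar2 (chr16:91372783-91405589), Ifnar1 (chr16:91485032-91510523) and Ifngr2 (chr16:91547059-91564007) are neighbours on chromosome 16. Probes for such near-identical neighbours can share signal, so values of closely related Oas1, Ifi200, Gbp and Ifit genes are uncertain as to the gene.

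Values are log2 expression values as deposited, so a difference of 1 is a doubling. To enter the tests of a tissue, a gene had to exceed the array's 40th percentile, taken over all probe sets, on 3 or more of that tissue's 18 arrays. That percentile ran from 3.12 to 3.47 over the arrays and the 60th from 6.32 to 6.85. Of the 64 genes, 43 passed in at least 1 tissue and 34 in all 3. The number that passed was 40 in brainstem, 39 in striatum and 36 in hippocampus, while 21 passed in none. Those 21 were Gbp2b, Ifi202b, Ifi203, Ifi209, Ifi47, Ifit1, Ifitm5, Ifitm6, Ifitm7, Irf4, Irf7, Isg20, Stat4, Stat5a, Oas1a, Oas1b, Oas1f, Oas1h, Oas2, Oas3 and Oasl1. At the other end 12 genes lay above the 60th percentile on all 54 arrays: Ifnar1, Ifnar2, Stat3, Stat5b, Irf1, Irf3, Irf2bp1, Irf2bp2, Irf2bpl, Ifitm3, Ifi27 and Isg20l2. A further 37 lay above it on none, and 16 of the tested genes were among those. Receptors, signal carriers and constitutive factors thus made up most of the bright set, and most effector genes were dim. The Oas family includes sensors of double-stranded RNA that activate RNase L, and the Ifi200 cluster includes DNA sensors. All 10 Oas genes and all 6 genes of the Ifi200 cluster stayed below the 60th percentile on every array. The 3 tested genes of that cluster, Ifi204, Ifi207 and Ifi213, sat between 3.25 and 3.62 in every tissue with strain means that spanned at most 0.19, so they were tested only because the 40th percentile lies just under them.

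**Figure D1:**
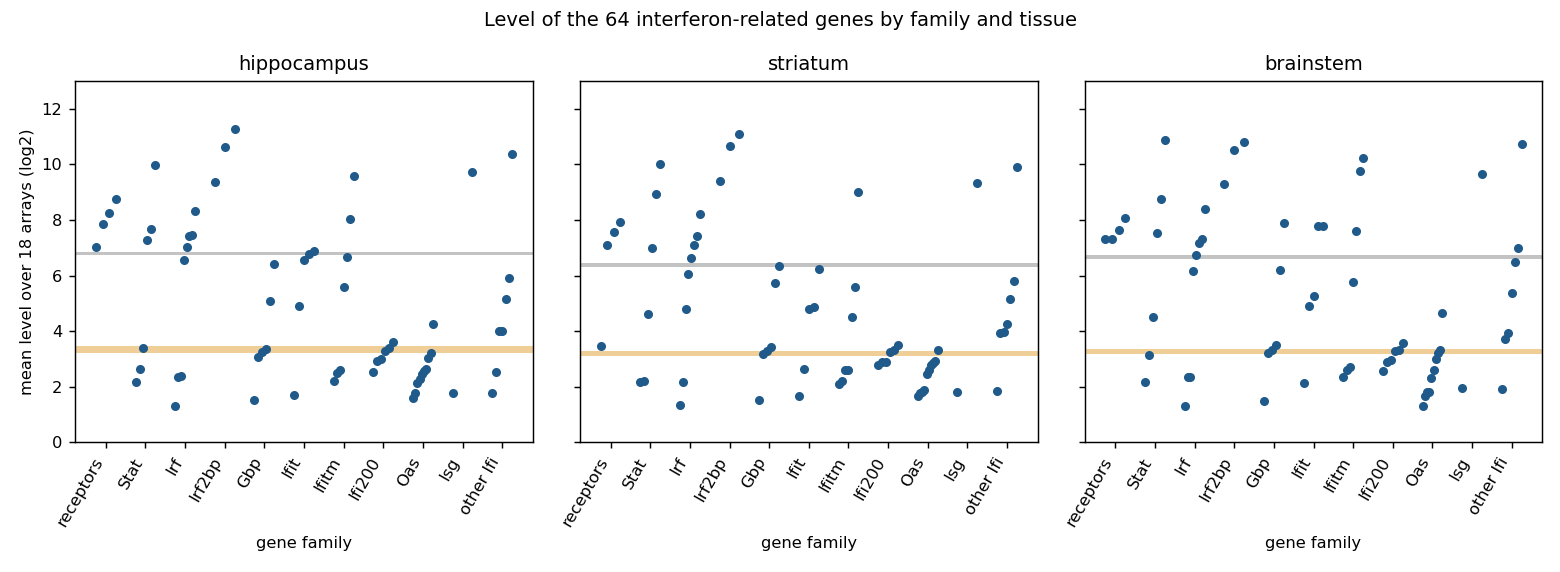
Each point is 1 of the 64 genes at its mean over the 18 arrays of the tissue (vertical axis, log2), grouped by family (horizontal axis), with the range of the arrays' 40th percentile in orange and of their 60th in grey. All Oas and Ifi200 points lie below the grey line in all 3 tissues; heights of different probe sets are not a comparison of transcript amounts.

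Levels in the 3 tissues were not tested against each other, because the lowest value differed by tissue (it was -0.02 to 0.03 on striatal, -0.12 to -0.08 on brainstem and -0.20 to -0.15 on hippocampal arrays), and the tissues may have been normalized apart. The widest gap between tissues among the receptors was that of Ifngr2, with a mean of 8.75 in hippocampus, 7.31 in brainstem and 3.48 in striatum. Ifitm10, a member of the IFITM family outside the antiviral cluster, had 8.04, 9.75 and 4.51 in hippocampus, brainstem and striatum. Irf8, a factor of microglia and other myeloid cells, passed the filter in striatum alone, at 4.80, with 2.37 in hippocampus and 2.36 in brainstem. The labelled tissues carried their own markers. The hippocampal, striatal and brainstem marker lists each had their highest mean in the tissue itself, at 11.56, 13.12 and 10.45. In the other tissues the hippocampal list averaged 6.97 and 7.70, the striatal 5.95 and 5.98, and the brainstem list 2.45 and 2.51. Of 5 lymphocyte markers, Cd3e, Cd3g and Cd79a averaged at most 2.30 in any tissue and passed the filter in none. Ms4a1 averaged 4.25, 4.28 and 4.20 in hippocampus, striatum and brainstem, and Cd4, which other cells also express, 4.88, 8.66 and 3.80. A single brainstem array stood apart, untested pool 2 of C3H HeJ. The mean of 5 cerebellar markers stood 4.98 above the brainstem median on it, at 14.59 against 9.37 on the lowest C3H HeJ array, and brainstem and microglial markers were at -1.45 and -1.05 relative to their medians. Calls of members for C3H HeJ in brainstem are therefore given with and without it. In striatum, untested pool 2 of C57L/J also stood apart. Striatal, hippocampal and neuronal markers on it were at -1.05, 1.53 and 0.70 relative to the striatal medians. On untested pool 1 of C57L/J they were at -0.38, 0.93 and 0.45.

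The first comparison asks which of the genes differed among the 6 strains within a tissue, with limma's moderated F test in a model with terms for strain and for testing, and Benjamini-Hochberg adjustment over all genes tested. In hippocampus 8 of 36 tested members were called at an adjusted p under 0.05, against 31.2% of all 12317 genes tested. In striatum 7 of 39 were called, against 26.2% of 12320, and in brainstem 8 of 40, against 23% of 12484. The members' shares were thus near or below the background in every tissue. The median range of their 6 strain means was 0.331, 0.424 and 0.385 on the log2 scale in hippocampus, striatum and brainstem, against 0.271, 0.358 and 0.296 over all genes tested. In all, 12 genes were called in some tissue. Ifit2, Ifit3, Gbp7, Ifi30 and Irf2bp2 were called in all 3, Ifitm1 in hippocampus and striatum, Stat3 and Ifitm10 in hippocampus, Isg20l2 in striatum, and Ifngr1, Stat2 and Irf2bp1 in brainstem. None of the 6 Irf, 3 Oas or 3 Ifi200 genes tested in some tissue was called. At an F test's level each call says only that some strains differ.

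Each of the other 5 strains was then compared with C57BL6/J, and these comparisons share the 3 C57BL6/J arrays of the tissue. For C3H HeJ, 2 of 36 members were called in hippocampus (background 18%), 5 of 39 in striatum (17.6%) and 5 of 40 in brainstem (19.3%). For BalbC/J, 4, 1 and 3 were called, beside a background of 15.1%, 7.68% and 12.3%. For C57L/J, 2, 1 and 2 were called, beside 4.39%, 4.3% and 3.28%. For C57BLKS/J there was 1 call, in striatum, beside 5.57%, 2.18% and 2.74%, and for C57BL10/J none, beside 2.25%, 0.536% and 2.75%. Called the same way in all 3 tissues, out of 34 members tested in each, was 1 gene in C3H HeJ and 1 in BalbC/J, Ifi30 in both, and 1 in C57L/J, Ifit2. The background for that was 4.45%, 3.15% and 1.17%, and it was 0.258% and 0.982% for C57BL10/J and C57BLKS/J, in which no member was called.

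Ifit2, whose product binds viral RNA and slows its translation, was the member with the lowest adjusted p. In C57L/J hippocampus it read 9.42 in the tested pool and 9.33 and 9.43 in the untested pools. The C57BL6/J pools read 6.38, 5.78 and 6.57, and the remaining strains lay between 5.57 and 6.45. In striatum the C57L/J pools read 6.35, 6.51 and 7.50 and those of C57BL6/J 4.44, 4.23 and 4.39. The highest of these, 7.50, is that of untested pool 2, the array with low striatal markers. In brainstem the C57L/J pools read 9.74, 9.69 and 9.60 against 7.31, 7.53 and 7.30. In each tissue all 3 C57L/J arrays stood above all 15 arrays of the other strains. The difference from C57BL6/J was 3.15 ± 0.22 in hippocampus (SE, limma, n = 3 and 3, adjusted p = 1.1e-07), 2.44 ± 0.31 in striatum (adjusted p = 2.07e-04) and 2.30 ± 0.33 in brainstem (adjusted p = 7.09e-04). These are 8.89-fold, 5.41-fold and 4.91-fold higher levels. On leaving out any 1 array the striatal difference lay between 2.01 and 2.83 and stayed called. A strain by tissue interaction was not called for Ifit2 (limma, adjusted p = 0.176). Ifit2 has 1 probe set on the array.

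Ifit3, its neighbour, encodes a partner of the IFIT complex and is induced by the same interferon signals, and it was lowest in the same strain. In hippocampus the C57L/J pools read 6.10, 5.83 and 6.04, and those of C57BL6/J 7.88, 6.79 and 7.61. The difference was -1.44 ± 0.32 (SE, limma, n = 3 and 3, adjusted p = 0.0162). In brainstem the C57L/J pools read 3.90, 5.81 and 4.48, and those of C57BL6/J 8.64, 8.71 and 8.68, a difference of -3.95 ± 0.35 (adjusted p = 6.55e-06), or 15.4-fold lower. In striatum the C57L/J pools read 4.84, 5.22 and 5.24 against 6.54, 6.40 and 6.14, a difference of -1.27 ± 0.37 that did not pass (adjusted p = 0.072). No C57L/J array overlapped with a C57BL6/J array in any tissue. BalbC/J was next lowest. Its pools read 6.39, 6.45 and 6.40 in hippocampus, 5.33, 5.66 and 5.30 in striatum, then 7.17, 6.90 and 7.58 in brainstem. Its differences from C57BL6/J were -1.01 ± 0.32 (adjusted p = 0.0475), -0.93 ± 0.37 (adjusted p = 0.174) and -1.46 ± 0.35 (adjusted p = 0.0134) in that order. The hippocampal BalbC/J call was lost on leaving out any 1 of 13 arrays, the C57L/J call there on 4 and the BalbC/J brainstem call on 2. Of those 13 arrays, 8 are of strains outside the contrast, which share its estimate of the spread. The strain by tissue interaction was called for Ifit3 (limma, adjusted p = 0.00136), and the C57L/J difference was widest in brainstem.

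Ifit2 and Ifit3 therefore departed from C57BL6/J in opposite directions in C57L/J, higher and lower in hippocampus and brainstem. The other tested genes of the block, Ifit1bl1 and Ifit1bl2, were called in no tissue, with adjusted p of the 6-strain test between 0.0765 and 0.764. Ifit1 was below the filter in every tissue. Whether sequence differences between strains under the probes play a part in these values was not tested, since probe sequences are not used here.

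**Figure D2:**
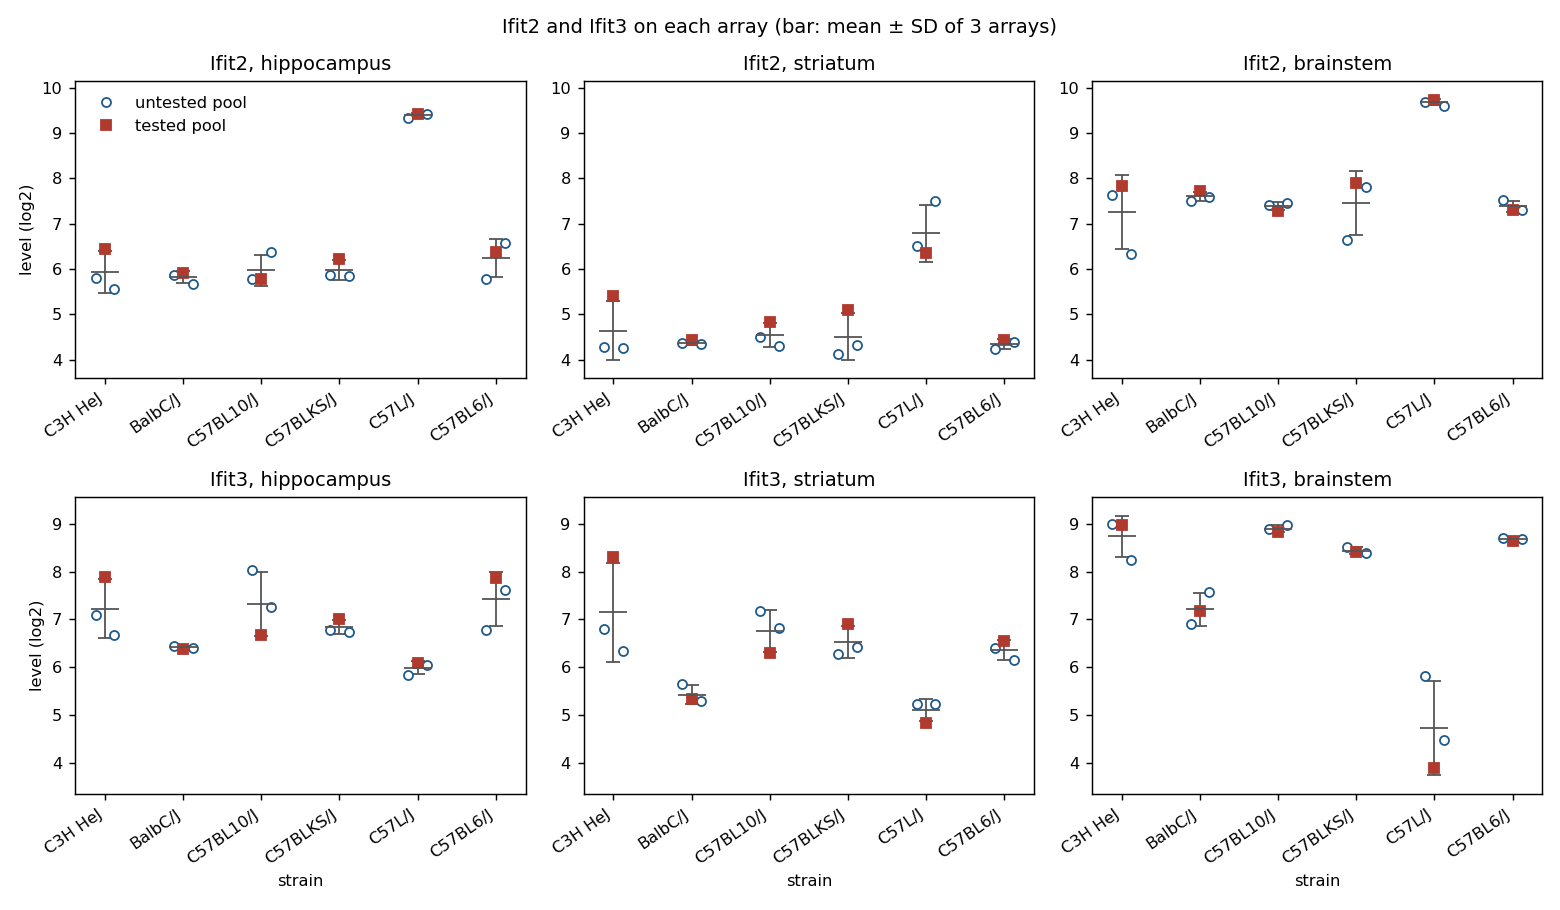
Level on each array (vertical axis, log2) of Ifit2 (top) and Ifit3 (bottom) by strain in the 3 tissues, with the tested pool as a red square, untested pools as open circles, and the bar at the mean ± SD of the 3 arrays. The C57L/J arrays are the highest for Ifit2 in every tissue, and for Ifit3 in brainstem they lie between 3.90 and 5.81 while all others lie between 6.90 and 8.99.

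Ifi30 encodes a lysosomal thiol reductase that unfolds antigens for presentation on MHC class II and is induced by interferon gamma. In BalbC/J hippocampus it read 6.37, 6.57 and 6.12 (tested, then untested), against 5.66, 5.52 and 5.54 in C57BL6/J. In striatum the values were 6.03, 5.79 and 5.72 against 4.56, 4.73 and 4.58, and in brainstem 6.97, 7.02 and 7.17 against 5.87, 6.34 and 6.19. The groups did not overlap in any tissue. Ifi30 rose by 0.78 ± 0.12 in hippocampus (SE, limma, adjusted p = 4.1e-04), 1.23 ± 0.13 in striatum (adjusted p = 2.44e-05) and 0.92 ± 0.18 in brainstem (adjusted p = 0.00346) relative to C57BL6/J, which is 1.72-fold, 2.34-fold and 1.89-fold. In C3H HeJ it was higher by 0.52 ± 0.12 (adjusted p = 0.00775), 0.59 ± 0.13 (adjusted p = 0.00601) and 0.57 ± 0.18 (adjusted p = 0.0387) in the same order. In C57BLKS/J it was higher in striatum, by 0.59 ± 0.13 (adjusted p = 0.0244). C57BL6/J had the lowest strain mean and BalbC/J the highest in all 3 tissues. The brainstem call in C3H HeJ was lost without the tested C3H HeJ array (difference 0.53, limma adjusted p = 0.0816), and without 4 other single arrays, but not without untested pool 2 (0.70, adjusted p = 0.0127). The C57BLKS/J call in striatum was lost on leaving out any 1 of 5 arrays. Markers of microglia, the resident phagocytes of the brain, were read beside it. Their summed linear level in hippocampus ran from 5270 to 5560 in C3H HeJ, 6020 to 6190 in BalbC/J and 6570 to 7790 in C57BL6/J. Of the 9 measured in C3H HeJ, 1 was called higher and 2 lower in hippocampus, 2 and 3 in striatum, and 0 and 2 in brainstem, relative to C57BL6/J. In BalbC/J, 0 microglial markers were called higher and 2 lower in hippocampus, 1 and 1 in striatum, and 0 and 2 in brainstem.

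Among the other IFITM genes, Ifitm1, which restricts entry of enveloped viruses, was called in hippocampus and striatum. Its BalbC/J hippocampal pools read 6.91, 7.45 and 7.21, and those of C57BL6/J 6.70, 6.41 and 6.42, which do not overlap. The difference was 0.68 ± 0.16 (SE, limma, n = 3 and 3, adjusted p = 0.01). In striatum it was higher in C3H HeJ, at 5.75, 6.24 and 5.68 against 5.74, 5.02 and 5.11, by 0.60 ± 0.18 (adjusted p = 0.0356), and there the tested C57BL6/J array lay among the C3H HeJ values. The striatal call was lost on leaving out 3 single arrays and the hippocampal on 2. Brainstem strain means spanned 0.38, and the adjusted p was 0.506. Ifitm10 was higher in BalbC/J hippocampus, at 8.30, 8.50 and 8.41 against 7.97, 8.06 and 8.19, by 0.33 ± 0.10 (limma, adjusted p = 0.0437). That call was lost on leaving out any 1 of 12 arrays, 8 of them of strains outside the contrast. Its strain differences were not called in striatum (adjusted p = 0.769) or brainstem (adjusted p = 0.411). Ifitm3, the brightest of the family, ranged over 0.67, 0.44 and 0.53 between strain means and was called in no tissue. Without the 3 tested C3H HeJ arrays, an alternative described with Gbp7, it was called in hippocampus (limma F test, adjusted p = 0.024).

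**Figure D3:**
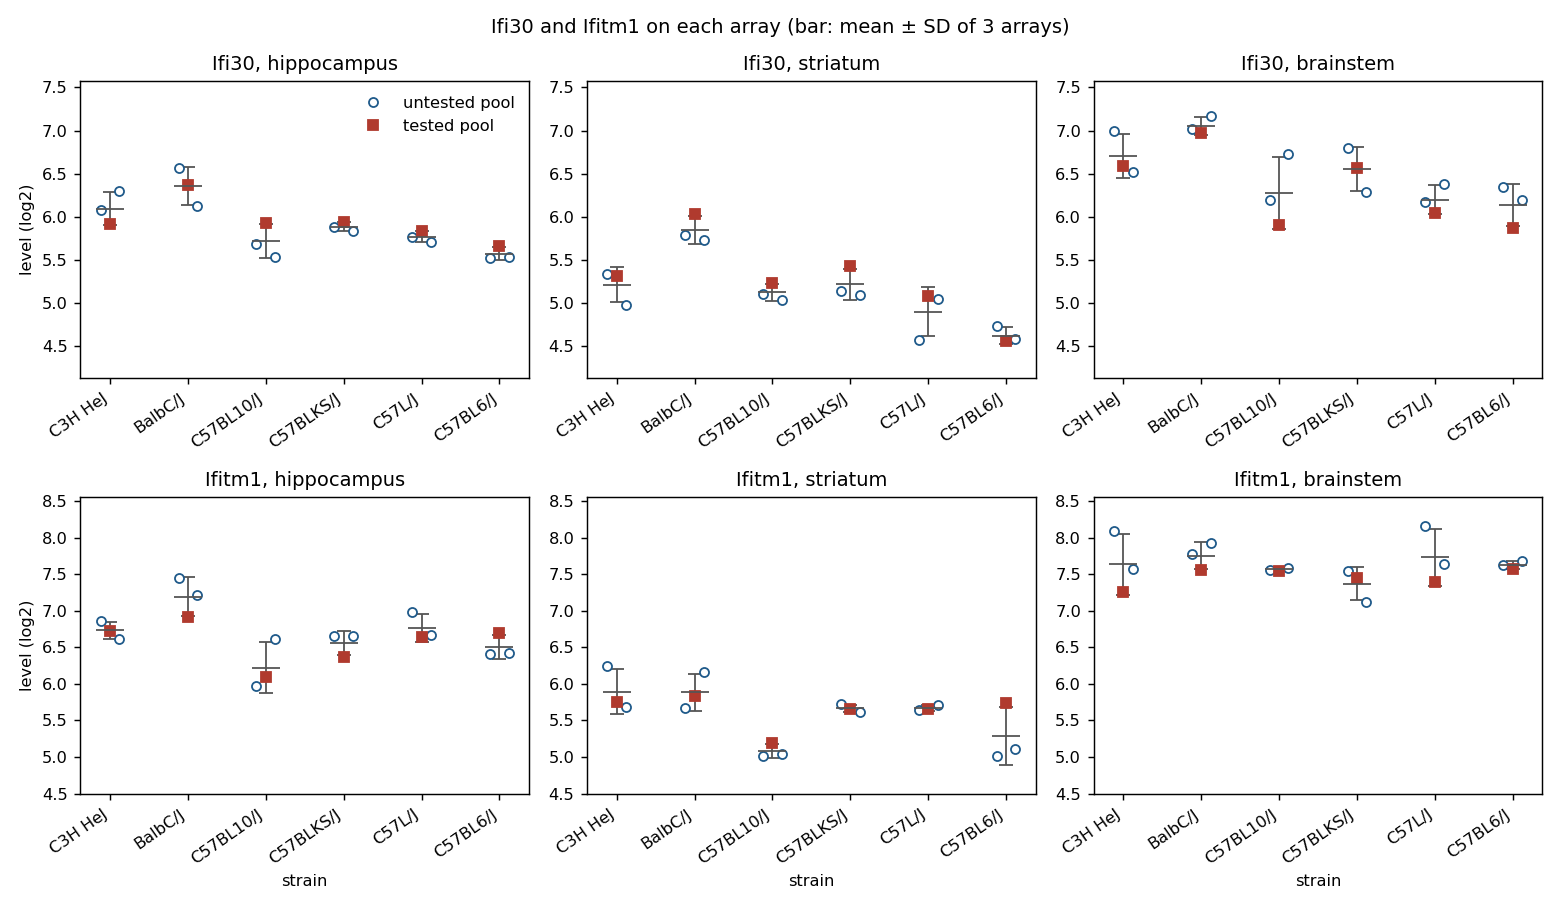
Level on each array (vertical axis, log2) of Ifi30 (top) and Ifitm1 (bottom) by strain in the 3 tissues, with the tested pool as a red square, untested pools as open circles, and the bar at the mean ± SD of the 3 arrays. Ifi30 is highest in BalbC/J and lowest in C57BL6/J in all 3 tissues, by 0.78, 1.23 and 0.92.

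The 4 receptor genes passed the filter in all tissues, Ifngr2 in striatum on 14 of 18 arrays and with a mean near the 40th percentile. Ifnar1 averaged 8.24, 7.94 and 7.63 in hippocampus, striatum and brainstem, and its strain means spanned 0.22, 0.53 and 0.53, called in none (limma F test, adjusted p = 0.635, 0.196 and 0.202). A single contrast passed, in C3H HeJ striatum, whose pools lay between 7.97 and 8.34 against 7.38 to 7.82 in C57BL6/J with no overlap, higher by 0.53 ± 0.17 (adjusted p = 0.0495). The call was lost on leaving out any 1 of 13 arrays, 7 of them of strains outside the contrast. Ifnar1 has another, dimmer probe set, which was called among strains in every tissue (adjusted p = 1.91e-04, 0.00112 and 4.95e-05). On it C3H HeJ was higher than C57BL6/J by 0.58, 0.77 and 0.58 and BalbC/J by 0.78, 0.57 and 0.61, with adjusted p between 2.25e-04 and 0.00347. The probe sets of Ifnar1 thus gave different calls. In striatum and brainstem the directions were the same, with C3H HeJ higher by 0.53 and 0.53 and BalbC/J by 0.46 and 0.34 on the brightest. In hippocampus the sizes differed, at 0.14 and 0.01 on the brightest. Which of them follows the transcript was not tested.

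Ifnar2 averaged 7.87, 7.57 and 8.07 and was called in no tissue on its brightest probe set (adjusted p = 0.36, 0.108 and 0.722). On its next brightest it was called in hippocampus (adjusted p = 0.0025) and striatum (adjusted p = 0.0395), where C3H HeJ was higher than C57BL6/J by 0.32 and 0.90. Ifngr1, the ligand-binding chain for interferon gamma, differed among strains in brainstem (limma F test, adjusted p = 0.0389). C57L/J had the highest mean, 7.59 ± 0.04 (SD, n = 3), and C3H HeJ the lowest, 7.08 ± 0.23. The C3H HeJ pools read 7.28, 7.14 and 6.83 and the C57BL6/J pools 7.34, 7.44 and 7.51, a difference of -0.35 ± 0.11 (SE, adjusted p = 0.0415) with no overlap. The lowest of these pools is untested pool 2, the array with high cerebellar markers, and without it the difference was -0.23 (limma, adjusted p = 0.125). That call was lost on leaving out any 1 of 12 arrays, 9 of them of strains outside the contrast, and the call among strains also on 12. Ifngr2 was called in no tissue (adjusted p = 0.375, 0.135 and 0.501). Its strain means in striatum ran from 2.80 in C3H HeJ to 3.90 in C57L/J, and its next brightest probe set lay near the 40th percentile in all 3 tissues, so it could not show a gap between tissues.

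Of the 6 Stat genes, Stat3, which carries signals of the IL-6 family as well as of interferons, differed among strains in hippocampus (limma F test, adjusted p = 0.00985). C3H HeJ and BalbC/J were highest, at 10.09 ± 0.11 and 10.14 ± 0.06 (SD, n = 3), and C57L/J lowest, at 9.80 ± 0.07. No strain was called against C57BL6/J, at 10.02 ± 0.03, and the next brightest probe set of Stat3 was not called (adjusted p = 0.122). Stat2, the partner of IRF9, differed in brainstem (adjusted p = 0.0407), and its strain by tissue interaction was called (adjusted p = 0.0122). In C3H HeJ brainstem it read 7.99, 7.78 and 8.79 against 7.33, 7.44 and 7.31 in C57BL6/J, higher by 0.83 ± 0.23 (adjusted p = 0.0245). The highest of these is untested pool 2, the array with high cerebellar markers, and without it the difference was 0.52 and no longer passed (limma, adjusted p = 0.0608). It was also lost without any 1 of the C57BL6/J arrays, and the call among strains on leaving out 13 of 18 arrays. The other probe set of Stat2 was not called in brainstem (adjusted p = 0.455), where C3H HeJ was higher by 0.23 (adjusted p = 0.263), and was called in striatum (adjusted p = 0.0425). In striatum C3H HeJ had the lowest mean of Stat2, 6.34 ± 0.80 (SD, n = 3), and C57BLKS/J the highest, 7.53 ± 0.17, not called (adjusted p = 0.163). Stat6, which answers interleukin 4, was lower in C3H HeJ striatum, at 4.02, 3.49 and 4.56 against 4.62, 4.92 and 5.04 (difference -0.84 ± 0.23, SE, adjusted p = 0.0235). The call was lost on leaving out 4 single arrays, and the difference was at its smallest -0.55. The 6-strain test of Stat6 in striatum was not called (limma F test, adjusted p = 0.0715). Stat5b was bright and called in no tissue.

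None of the 6 Irf genes tested passed the 6-strain test. Irf3, the factor that TBK1 phosphorylates after nucleic acid sensing, averaged 8.31, 8.21 and 8.40, with strain means that spanned 0.21, 0.33 and 0.16 (limma F test, adjusted p = 0.643, 0.174 and 0.632). Irf9, the DNA-binding part of the type I complex, averaged 7.04, 7.41 and 6.74, with adjusted p of 0.658, 0.548 and 0.602. Irf1, Irf2 and Irf5 were tested in every tissue with adjusted p of at least 0.156, and Irf8 in striatum alone. Irf7, the amplifier of the type I response, stood at 1.31, 1.35 and 1.31 and passed the filter in none, as did Irf4. The differences in this name group lay instead in the Irf2bp genes, whose products act as corepressors. Irf2bp2 was called in all 3 tissues (adjusted p = 0.0322, 0.00254 and 0.0241) and in the strain by tissue interaction (adjusted p = 6.73e-05). In striatum C3H HeJ had its highest mean, 11.46 ± 0.03 (SD, n = 3), and C57BLKS/J its lowest, 10.76 ± 0.08. In hippocampus the order differed, with C57L/J highest at 10.76 ± 0.07 and C3H HeJ lowest at 10.48 ± 0.14. The hippocampal call was lost without the tested C3H HeJ array (adjusted p = 0.0717) and on leaving out 8 other single arrays. In brainstem C3H HeJ was higher than C57BL6/J, at 10.67, 10.64 and 10.93 against 10.28, 10.44 and 10.31, by 0.40 ± 0.09 (adjusted p = 0.00604), and by 0.30 without untested pool 2 (adjusted p = 0.012). Of its 3 other probe sets, the dimmest was called in all 3 tissues, 1 in hippocampus and 1 in none. In hippocampus the dimmest ordered the strains otherwise, with C3H HeJ highest, at 8.04, so these probe sets disagree there. Irf2bp1 was called in brainstem (adjusted p = 0.0208), higher than in C57BL6/J by 0.32 ± 0.09 in C3H HeJ (adjusted p = 0.0205) and by 0.37 ± 0.09 in BalbC/J (adjusted p = 0.0127). Without untested pool 2 of C3H HeJ the former was 0.26 (adjusted p = 0.0503). Isg20l2 was higher in C3H HeJ striatum, at 9.59, 9.66 and 9.79 against 9.34, 9.10 and 9.12, by 0.49 ± 0.09 (adjusted p = 0.00224), and in hippocampus by 0.38 ± 0.11 (adjusted p = 0.024), where the 6-strain test was not called (adjusted p = 0.141). The tested C57BL6/J pool read 9.20 in hippocampus, the other C57BL6/J pools 9.71 and 9.75, and without the tested one the difference was 0.20 (adjusted p = 0.111).

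Over the 34 members tested in all tissues, the strain by tissue interaction was called for 3, Ifit3, Stat2 and Irf2bp2, against 18.1% of 11606 genes.

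Gbp7 encodes a guanylate-binding protein, an interferon-induced GTPase that acts on vacuoles and membranes of pathogens. Its dimmer probe set averaged 2.16, 2.29 and 2.29 in hippocampus, striatum and brainstem, under the 40th percentile. That probe set was not called (limma F test, adjusted p = 0.397, 0.533 and 0.484). On the brightest, Gbp7 was called in hippocampus, striatum and brainstem (limma F test, adjusted p = 0.0452, 0.0157 and 0.0426), and its arrays varied at both ends. C57BLKS/J was low: its pools read 4.02, 4.10 and 4.20 in hippocampus, 5.17, 3.44 and 4.43 in striatum, then 4.72, 4.69 and 4.96 in brainstem. The C57BL6/J pools read 4.59, 5.35 and 5.22, then 5.95, 5.86 and 6.03, then 5.86, 6.56 and 6.06. The groups did not overlap, but no contrast was called, with differences of -0.94 ± 0.41, -1.60 ± 0.43 and -1.37 ± 0.48 (SE, adjusted p = 0.219, 0.0842 and 0.199). At the other end a single array was high, that of the tested C3H HeJ pool, at 7.48, 8.21 and 8.78, where the untested C3H HeJ pools read 5.22 and 5.24, 5.90 and 6.14, and 6.42 and 6.02. Left out in all 3 tissues, an alternative added after the values were seen, the C57BLKS/J differences kept their size and their errors fell: -0.94 ± 0.19, -1.60 ± 0.29 and -1.37 ± 0.24 (limma, adjusted p = 0.00991, 0.0111 and 0.00791). Ifit3 in C57L/J striatum then also passed (-1.27 ± 0.23, adjusted p = 0.00813), as did Ifit3 in BalbC/J striatum (-0.93 ± 0.23, adjusted p = 0.029). The number of members called in the 6-strain test stayed at 8, 7 and 8, of which 7, 7 and 7 were shared with the fit on all arrays, against 26.9%, 19.5% and 22.9% of all genes.

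**Figure D4:**
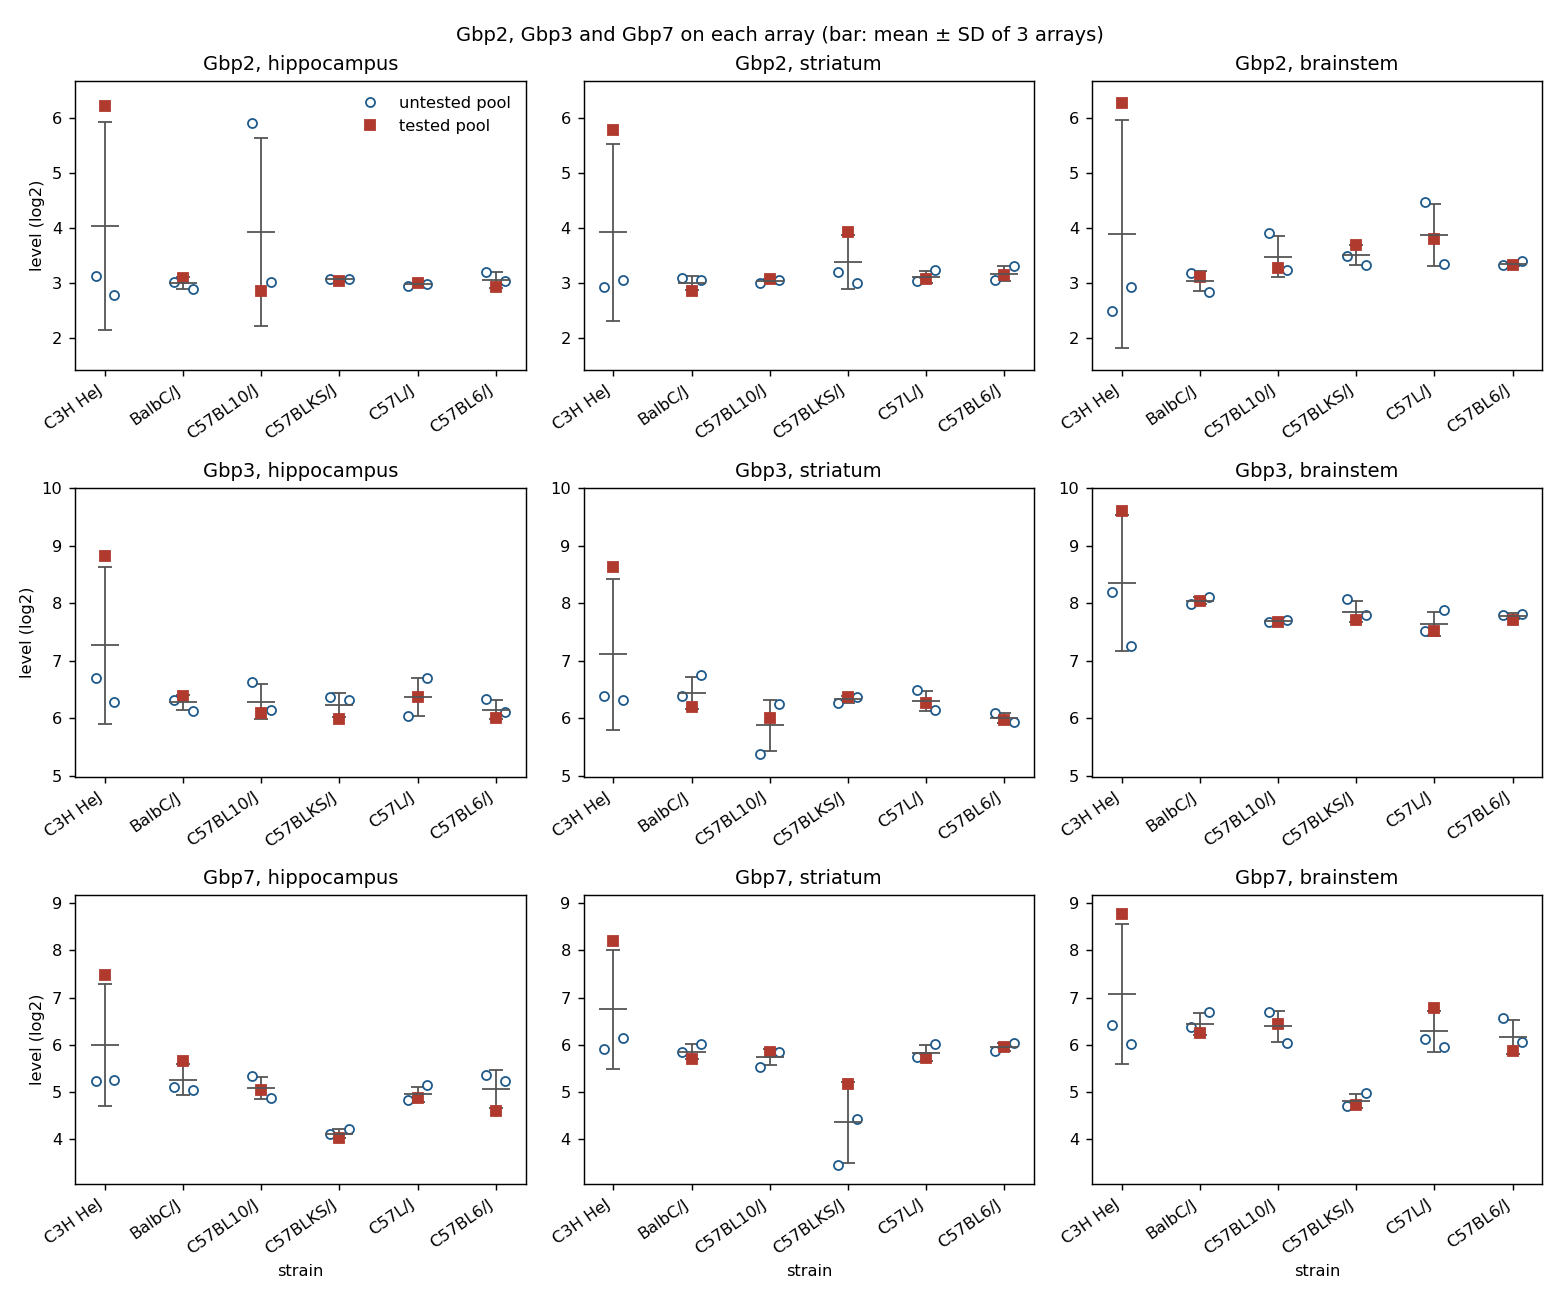
Level on each array (vertical axis, log2) of Gbp2 (top), Gbp3 (middle) and Gbp7 (bottom) by strain in the 3 tissues, with the tested pool as a red square, untested pools as open circles, and the bar at the mean ± SD of the 3 arrays. The tested C3H HeJ array is the highest of the 18 for each gene in each tissue, and C57BLKS/J is low for Gbp7 alone, between 3.44 and 5.17.

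That array held more than Gbp7. For each array, members were counted that lay more than 1 on the log2 scale, or 2-fold, above the mean of the other 2 arrays of the same strain and tissue. The tested C3H HeJ array had 6 such members in hippocampus, 8 in striatum and 8 in brainstem, of 64, where over all genes the share on these arrays was 0.346%, 0.17% and 0.495%. Of the other 51 arrays 41 had 0, 8 had 1, 1 had 2 and 1 had 4. In all, 11 members were above that step in some tissue and 4 in all 3, Gbp2, Gbp3, Gbp7 and Ifi35. Against untested pool 1 alone, leaving out the brainstem array with high cerebellar markers, 7 members were above the step in brainstem (0.121% of all genes) and 3 in all 3 tissues, since the gap of Ifi35 in brainstem became 0.66. With values under an array's 40th percentile raised to it, the counts were 6, 7 and 8, with 4 in all 3 tissues and at most 4 on any other array. Both alternatives, and the genes named here and below, were chosen after the values were seen. A difference of 1 array from 2 has no test.

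Gbp2, a GTPase that helps break pathogen vacuoles, read 6.22, 5.78 and 6.27 on the tested C3H HeJ array in hippocampus, striatum and brainstem. On the untested C3H HeJ arrays it read 3.13 and 2.78, 2.92 and 3.06, and 2.49 and 2.93, at or under the arrays' 40th percentile. The gap to their mean was 3.26, 2.79 and 3.57, or 2.89, 2.54 and 2.97 with values raised to the 40th percentile, since differences below it carry little signal. Gbp3 read 8.82, 8.63 and 9.60, against 6.71 and 6.28, 6.40 and 6.31, and 8.19 and 7.26, gaps of 2.33, 2.28 and 1.87. Gbp7 had gaps of 2.25, 2.19 and 2.55. Ifi35, an interferon-induced leucine zipper protein, read 6.73, 5.43 and 7.89, against 5.15 and 5.36, 3.86 and 3.97, and 7.24 and 6.17, gaps of 1.47, 1.52 and 1.19. For each of these 4 genes the array was above all 17 others of its tissue. Gbp2 has 2 probe sets and Ifi35 has 3, and only the brightest of each is given here. Ifitm3 was above the step in hippocampus and striatum (gaps of 1.51 and 1.40, with 0.94 in brainstem). Ifit1 was under the 40th percentile on this array too in hippocampus and striatum, at 2.59 and 2.85, and above it in brainstem, at 4.49, a gap of 1.19 to the raised values. Ifit3 had gaps of 1.00, 1.74 and 0.36. Oasl2, Gbp8 and Ifi27l2a were above it in brainstem alone, by 1.84, 2.55 and 1.55, and Ifit2 in striatum alone, by 1.13. The receptors, Stat, Irf and Ifi200 genes had no member above the step on this array.

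The other tested arrays did not show the pattern. On the 5 tested arrays of the other strains Gbp2 lay between 2.85 and 3.10 in hippocampus, 2.85 and 3.93 in striatum and 3.11 and 3.80 in brainstem, and Gbp3 between 5.99 and 6.39, 5.97 and 6.37, and 7.52 and 8.04. With 1 tested array per strain and tissue, testing and the mice of that pool cannot be told apart for C3H HeJ. The labels do not say whether its tested pools of the 3 tissues came from the same mice, so these are not 3 independent cases. The array with 4 members above the step was untested pool 1 of C57BL10/J in hippocampus, where Gbp2 read 5.91 against 2.85 and 3.02, and gaps were 2.97 for Gbp2, 1.59 for Ifi35, 1.49 for Oasl2 and 1.05 for Ifit3. On untested pool 1 of the same strain, Gbp2 had a gap of -0.05 in striatum and 0.65 in brainstem. In brainstem 1 member was above the step on it, Ifit1, at 3.51 against 2.39 and 1.92, a gap of 1.35. Both lower values are under those arrays' 40th percentile.

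**Figure D5:**
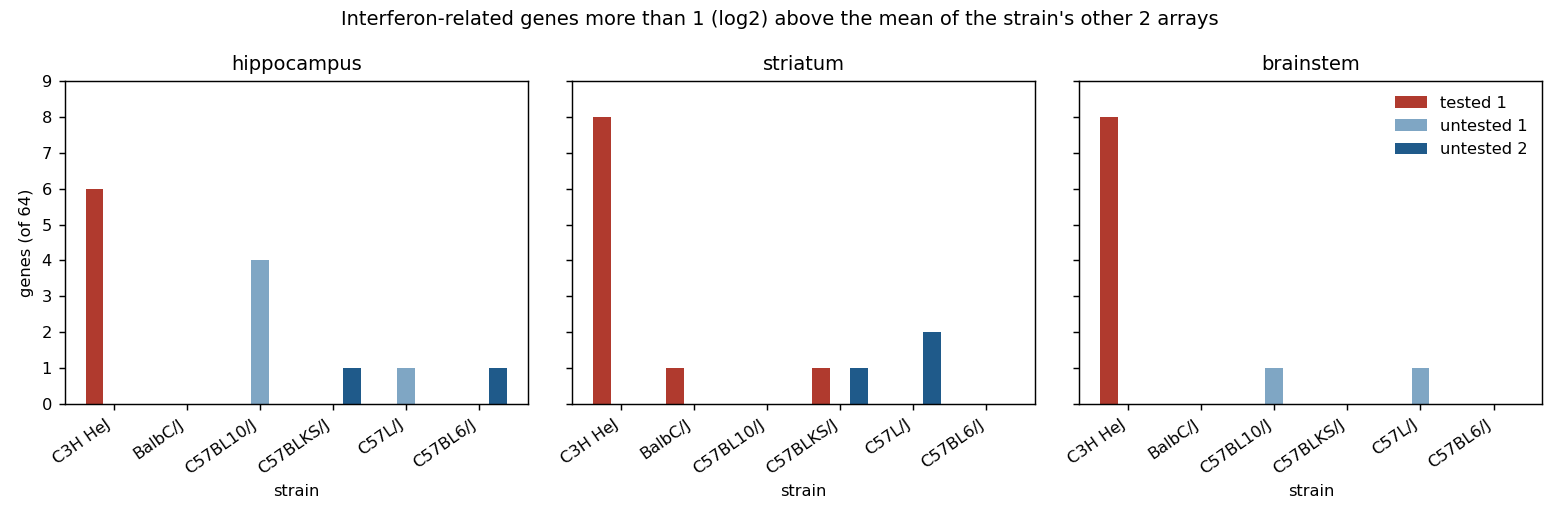
Number of the 64 genes (vertical axis) that lie more than 1 on the log2 scale above the mean of the strain's other 2 arrays in that tissue, for each of the 54 arrays by strain. The tested C3H HeJ bars reach 6, 8 and 8, and the next highest bar, untested pool 1 of C57BL10/J in hippocampus, reaches 4.

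Marker lists of other cell types were read on the same arrays. On the tested C3H HeJ array in hippocampus, 5 choroid plexus markers had a mean level of 9.51, which is 2.80 above the median of the hippocampal arrays, but in striatum they were 0.58 below the median and in brainstem 0.16 above. On the C57BL10/J array named above they were 3.24 above, and on the other untested C57BL10/J hippocampal array, whose Gbp2 was 3.02, they were 2.98 above. Microglial markers were 0.25, 0.22 and 0.24 below the tissue median on the tested C3H HeJ arrays, endothelial markers 0.00, 0.10 and 0.14 above, and lymphocyte markers 0.16 above, 0.01 below and 0.07 above. The 2 measured blood markers were at 0.07, 0.00 and 0.51 relative to the medians, of which only Alas2 passed the filter, in brainstem. Cerebellar markers were at -0.01, -0.08 and 0.47. The part of any of these cell types in the pattern was not tested.

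Other genes of the pathway, in a list of 60 of which 55 were measured, served for comparison. In the 6-strain test 6 of 35, 6 of 27 and 3 of 34 tested were called in hippocampus, striatum and brainstem, beside the background of 31.2%, 26.2% and 23%, with median ranges of 0.266, 0.298 and 0.23. Tlr3, the endosomal sensor of double-stranded RNA, was lower in C57L/J than in C57BL6/J, with differences of -1.79 ± 0.16, -1.83 ± 0.24 and -1.55 ± 0.15 in hippocampus, striatum and brainstem (SE, limma, adjusted p = 2.49e-06, 3.34e-04 and 2.03e-05). Jak2, the kinase at the interferon gamma receptor, was higher in C57BLKS/J hippocampus by 0.39 ± 0.06 (adjusted p = 8.84e-04). Adar, the editor of double-stranded RNA, was lower than in C57BL6/J in C3H HeJ hippocampus and brainstem (differences -0.22 ± 0.05 and -0.21 ± 0.05, adjusted p = 0.00884 and 0.0114). It was also called lower in hippocampus of C57BLKS/J (-0.25 ± 0.05, limma, adjusted p = 0.00933) and C57L/J (-0.27 ± 0.05, adjusted p = 0.00564). All 5 strains had lower means of Adar than C57BL6/J in every tissue. Its brainstem call is not given without untested pool 2 of C3H HeJ. Tbk1, the kinase upstream of IRF3, was higher in BalbC/J striatum by 0.28 ± 0.08 (adjusted p = 0.0491). The interferon genes themselves, Ifnb1 and Ifng, averaged 2.23 and 2.53 and passed the filter in no tissue. On the tested C3H HeJ array 5 of the measured pathway genes were above the step in some tissue and 2 in all 3. By tissue these were 3, 3 and 4 of 55 in hippocampus, striatum and brainstem, beside 0.346%, 0.17% and 0.495% of all genes. No other array had more than 1. Igtp, an immunity-related GTPase, read 5.51, 6.82 and 7.83 on the tested C3H HeJ array. The untested C3H HeJ arrays read 3.27 and 3.22, 2.84 and 2.94, and 4.97 and 4.81. Irgm2, of the same family, read 5.82, 5.02 and 6.74 against 3.11 and 3.02, 3.00 and 3.10, and 3.56 and 3.49. Usp18, a brake on the type I receptor, was above the step in hippocampus, Ifih1, a cytosolic RNA sensor, in brainstem, and Irgm1 in striatum and brainstem. The pathway genes were not recounted with raised values or against untested pool 1 alone. Usp18 in hippocampus read 3.76 against 2.13 and 2.04, both under the arrays' 40th percentile. Irgm1 in brainstem read 6.31 against 5.59 and, on the array with high cerebellar markers, 4.93, a gap of 1.05. Untested pool 1 of C57BL10/J in hippocampus read 5.28 for Igtp, a gap of 2.06. It read 5.03 for Irgm1, where the tested C3H HeJ array read 4.71. On untested pool 1 of C57BL10/J in brainstem Irgm2 had a gap of 1.01.

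The last comparison was between tested and untested pools, with 6 tested and 12 untested arrays in each tissue, strain being a term of the model. No member was called in any tissue, and no gene of any kind was (0% of all genes tested, limma, adjusted p under 0.05). At an unadjusted p under 0.05 there were 0 of 36, 5 of 39 and 2 of 40 members in hippocampus, striatum and brainstem, beside 3.96%, 3.79% and 2.25% of all genes. The lowest p in hippocampus was that of Stat3 (0.126, difference -0.07 ± 0.04, SE, adjusted p = 1, limma). In striatum it was that of Irf2bp2 (0.00931, difference 0.20 ± 0.07), followed by Ifnar1 (0.0335, 0.25 ± 0.11) and Ifitm3 (0.0344, 0.36 ± 0.15), all with an adjusted p of 1. In brainstem it was that of Ifi27l2b (0.0299, difference -0.09 ± 0.04), then Ifi30 (0.043, -0.24 ± 0.11), both with an adjusted p of 0.986. For Ifitm3 in striatum the tested C3H HeJ array, at 10.05, was the highest of the 18, and the next tested array read 9.26. With a single tested array per strain, a response to testing in 1 strain only could not be tested.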

How the data were processed

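RNA from pooled tissue was hybridised to 54 expression arrays, 18 per tissue. The authors deposited log2 expression values per probe set. R 2.6.1, affy 1.16.0, RMA, GCRMA 2.10.0 and limma 2.12.0 are named per the submitters' processing notes, which do not state whether RMA or GCRMA gave these values. RNA was extracted with TRIzol, per the labels' protocols. No hybridization batch or scan date was used here, so none was tested, and the number of arrays limits the precision. The labels' growth protocol leaves C57BL10/J out of its list of strains.

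Of 45101 probe sets, 34945 carried 1 symbol and were used; 932 with several symbols (10 of them matching the rule), 9160 unnamed here and 64 controls were set aside. Tests used limma 3.58.1 in R 4.3.3, with lmFit and eBayes with a trend, with strain and testing as terms of a model of 1 tissue's 18 arrays, and for the strain by tissue interaction (10 degrees of freedom) all 54 arrays, taken as independent although tissues share mice. Tests were two-sided, with Benjamini-Hochberg adjustment over all genes tested and calls under 0.05. The scripts were tested on simulated data. Replicates are pools, and nothing in the labels says that untested pools of different tissues share a number: deviations of same-numbered arrays from their strain means, 18 pairs for each pair of tissues, had median correlations of 0.0103, 0.107 and -0.0129, with 4, 10 and 2 over 0.1, so the numbers were not taken as pairs.

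The members and the pathway and marker lists were chosen with earlier results of these data known. Named genes are the receptors, up to 4 genes per family called in any tissue with the smallest adjusted p, and the 3 with the smallest p for testing in each tissue; others named were chosen after their values were seen. Alternatives were another normalization, other filters, the mean of a gene's probe sets, a replicate block and leaving out each array.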

Additional observations from a re-analysis of the deposited data

Results flagged for a closer look

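The strain differences of 3 genes themselves differed between tissues by the interaction test (limma): Ifit3 (adjusted p = 0.00136), Irf2bp2 (adjusted p = 6.73e-05) and Stat2 (adjusted p = 0.0122).

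Among the 6 tested arrays of a tissue, 1 array stood apart in 13 of 54 gene and tissue groups by Dixon's test of the gap over the range. These 6 arrays are of 6 strains, so a strain that differs is picked up, and chance alone flags about 1 in 20 groups. The C3H HeJ array was high for Gbp7 in striatum (8.21, next 5.95, ratio 0.742), Irf9 in striatum and brainstem (ratios 0.774 and 0.633), and Ifitm3 in hippocampus and striatum (0.636 and 0.679). The C57L/J array was high for Ifit2 in hippocampus and brainstem (0.815 and 0.747) and low for Ifit3 in brainstem (0.644). The C57BL10/J array was low for Ifitm1 in striatum (5.19, next 5.65, ratio 0.719). The BalbC/J array was high for Ifitm10 in hippocampus and striatum (0.73 and 0.66). The C57BL6/J array was low for Irf2bp1 in brainstem (0.628) and Isg20l2 in hippocampus (0.755).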

How the results depend on the processing

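No strain difference of a member that passed the threshold on all arrays changed direction under any alternative in which it was tested. Strain differences that passed only under an alternative were not followed for direction. Of 27 testing differences of named genes, none called, 7 changed sign on leaving out 1 array, each at most 0.0917 in size on all arrays. The counts of members in the 6-strain test went from 7 to 4 in striatum with the 60th percentile filter and from 8 to 5 in brainstem with no filter on low values, and the causes were not tested beyond the change in genes tested. The count called the same way in all 3 tissues in C3H HeJ, 1, became 0 with quantile normalization, with no filter, with the 60th percentile filter and without the 3 tested C3H HeJ arrays (chosen after seeing the data), and 2 with the mean of all probe sets. For BalbC/J, 1 became 0 with the 60th percentile filter and 2 with the mean of probe sets or without those 3 arrays. For C57BLKS/J, 0 became 1 and for C57L/J, 1 became 2 without those arrays, and for C57L/J it was 0 with the 60th percentile filter. Leaving out each array gave 5 to 9, 6 to 10 and 4 to 11 members in the 6-strain test of hippocampus, striatum and brainstem, in all 3 tissues 0 to 1 for C3H HeJ, 1 to 2 for BalbC/J and for C57L/J, and 0 to 0 for C57BL10/J and for C57BLKS/J, 3 to 5 in the interaction and 0 to 0 for testing. The C3H HeJ call in all 3 tissues was lost without the tested or untested 1 C3H HeJ brainstem array or any 1 C57BL6/J brainstem array, and the gains for BalbC/J and C57L/J came without the tested C3H HeJ striatum array, that for C57L/J also without the untested 2 C3H HeJ striatum array.

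With the replicate block the 6-strain counts were 7, 8 and 6, the counts in all 3 tissues were 1 for C3H HeJ, BalbC/J and C57L/J and 0 for the others, and the interaction count was 4; the array numbers are only names, and the block changed no other count by more than this. Of 52 called results of named genes, 24 lost the call without at least 1 array and 9 without 9 or more. Gbp7 in hippocampus and brainstem lost it on leaving out 13 of 18 arrays each; the other 7 of these are given beside their values. Genes near the 40th percentile carry little signal above the floor.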
